A study of Homo sapiens with 6 samples.

Results

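The genes described here are 9 acute-phase and complement genes, SAA1, SAA2, C4BPA, C4BPB, C3, CFB, C1R, C1S and SERPING1, out of 58051 gene identifiers in a count table of polyA RNA from U2OS cells. U2OS is an established human osteosarcoma line. The knockdown libraries came from cells given an siRNA against SURF2 (siSURF2, 3 libraries), and the control libraries from cells given a scrambled siRNA (siSCR, 3 libraries). Both groups had 2 transfections 49 h apart and were taken at 96 h, so both carry whatever transfection itself does. SAA1 and C4BPB were picked by their strong falls in siSURF2 against siSCR, so their values in that comparison are given as a description with no test. The other 7 were named as members of the same families and systems. Of the 9 genes, 8 had at least 1 count and the same 8 passed the filter on low counts. C4BPA had none.

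Serum amyloid A proteins are small apolipoproteins that the liver secretes in large amounts in the acute phase of inflammation, and other cells can make them under interleukin 1, interleukin 6 and glucocorticoids. Complement is a cascade of plasma proteins. C1R and C1S are the serine proteases of the C1 complex that starts the classical pathway, CFB supplies the protease of the alternative pathway convertase, and all pathways converge on cleavage of C3. SERPING1 encodes C1 inhibitor, which inactivates C1R and C1S, and C4BPA and C4BPB encode the alpha and beta chains of C4b-binding protein, which slows the classical pathway. Many of these genes are known targets of NF-kB, C/EBP and STAT factors.

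Counts assigned to genes ranged from 18151554 to 19688089 in siSURF2 libraries and from 17123333 to 19573786 in siSCR libraries. SURF2 itself stood at 3.74, 3.56 and 3.20 CPM (counts scaled to the library total) in siSURF2 replicates 1, 2 and 3, against 36.2, 35.8 and 32.3 CPM in siSCR replicates 1, 2 and 3. One library, siSURF2 replicate 2, held 2.73% of its counts in mitochondrial genes, against 4.70% and 4.74% in siSURF2 replicates 1 and 3 and 2.91% to 3.50% in siSCR. Values without it are given where they differ. Of 8 osteoblast lineage markers, 4 were at a testable level. RUNX2, a transcription factor of that lineage, stood at 23.1 ± 1.88 CPM in siSURF2 and 22.8 ± 1.60 CPM in siSCR (SD, n = 3 each), while SP7 had 0 or 1 count per library and IBSP had none. Of the genes tested over the whole table, 25.8% were called higher and 26.2% lower in siSURF2, 52.0% in all, so a call by itself is common in this comparison. Nothing in the labels tells if the replicates are independent cultures, and p-values therefore reflect only how far these libraries spread. In bulk RNA, fewer cells that make a transcript and less of it per cell cannot be told apart.

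Serum amyloid A transcripts were at most 14 counts per library in siSURF2. SAA1 (ENSG00000173432, chromosome 11, 18266174 to 18269977, GRCh38) had 10, 14 and 10 counts in siSURF2 replicates 1, 2 and 3, against 367, 447 and 442 counts in siSCR replicates 1, 2 and 3. The groups lay far apart, and each was tight within itself. Its mean level was 0.591 ± 0.117 CPM in siSURF2 and 22.8 ± 1.04 CPM in siSCR (SD, n = 3 each). The log2 fold change was -5.26 ± 0.16 (SE), or -5.43 without siSURF2 replicate 2. The siSCR level was 38.6 times the siSURF2 level, and from summed counts alone the exact 95% interval of that ratio was 27.5 to 56.1, which covers counting error only.

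SAA2 (ENSG00000134339), which encodes a nearly identical acute-phase protein from the opposite strand of the same locus, fell as well. It had 5, 2 and 0 counts in siSURF2 replicates 1, 2 and 3, against 35, 52 and 43 counts in siSCR replicates 1, 2 and 3. The groups did not overlap, and the gene passed the filter on low counts through siSCR alone. Its level was 0.126 ± 0.139 CPM in siSURF2 and 2.36 ± 0.372 CPM in siSCR (SD, n = 3 each), and the log2 fold change was -4.20 ± 0.46 (edgeR adjusted p = 9.3e-09). Without the filter on low counts it was -4.18, and the call held (edgeR adjusted p = 5.0e-20). Leaving out siSURF2 replicate 1 gave -5.35, and leaving out siSURF2 replicate 3, the library with 0 counts, gave -3.61. The pair cannot be fully separated. In the annotation, 46.6% of the 50-base stretches of SAA1 transcripts also occur in SAA2 transcripts, and the sources used here do not give how the authors' counting treated such reads. SAA1 held 82.9% of the counts of both genes in siSURF2 (34 of 41, Wilson 95% interval 68.7% to 91.5%) and 90.6% in siSCR (1256 of 1386, interval 89.0% to 92.1%). By library the share was 66.7%, 87.5% and 100% in siSURF2 replicates 1, 2 and 3, from 15, 16 and 10 counts of the pair. A difference in the balance of the pair was not tested. SAA4, the constitutive member of the family, had 1 count over all 6 libraries, and the readthrough transcript SAA2-SAA4 had none.

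C4b-binding protein was represented by its beta chain gene alone. C4BPB (ENSG00000123843, chromosome 1, 207088842 to 207099993) had 2, 5 and 1 counts in siSURF2 replicates 1, 2 and 3, against 82, 110 and 102 counts in siSCR replicates 1, 2 and 3. No siSURF2 library came near the siSCR range. The level was 0.139 ± 0.107 CPM in siSURF2 and 5.33 ± 0.509 CPM in siSCR (SD, n = 3 each), and the log2 fold change was -5.20 ± 0.33 (SE). With so few counts in siSURF2, the fold itself is loose: the siSCR to siSURF2 ratio from summed counts was 38.5, with an exact 95% interval of 19.3 to 90.0. The log2 fold change was -5.97 without siSURF2 replicate 2 and -4.79 without siSURF2 replicate 3. C4BPA (ENSG00000123838), which lies next to it on the same strand and encodes the chain that binds C4b, had 0 counts in all 6 libraries. A count of 0 allows up to 3 counts, which is 0.150 to 0.165 CPM in siSURF2 libraries and 0.154 to 0.178 CPM in siSCR libraries.

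**Figure D1:**
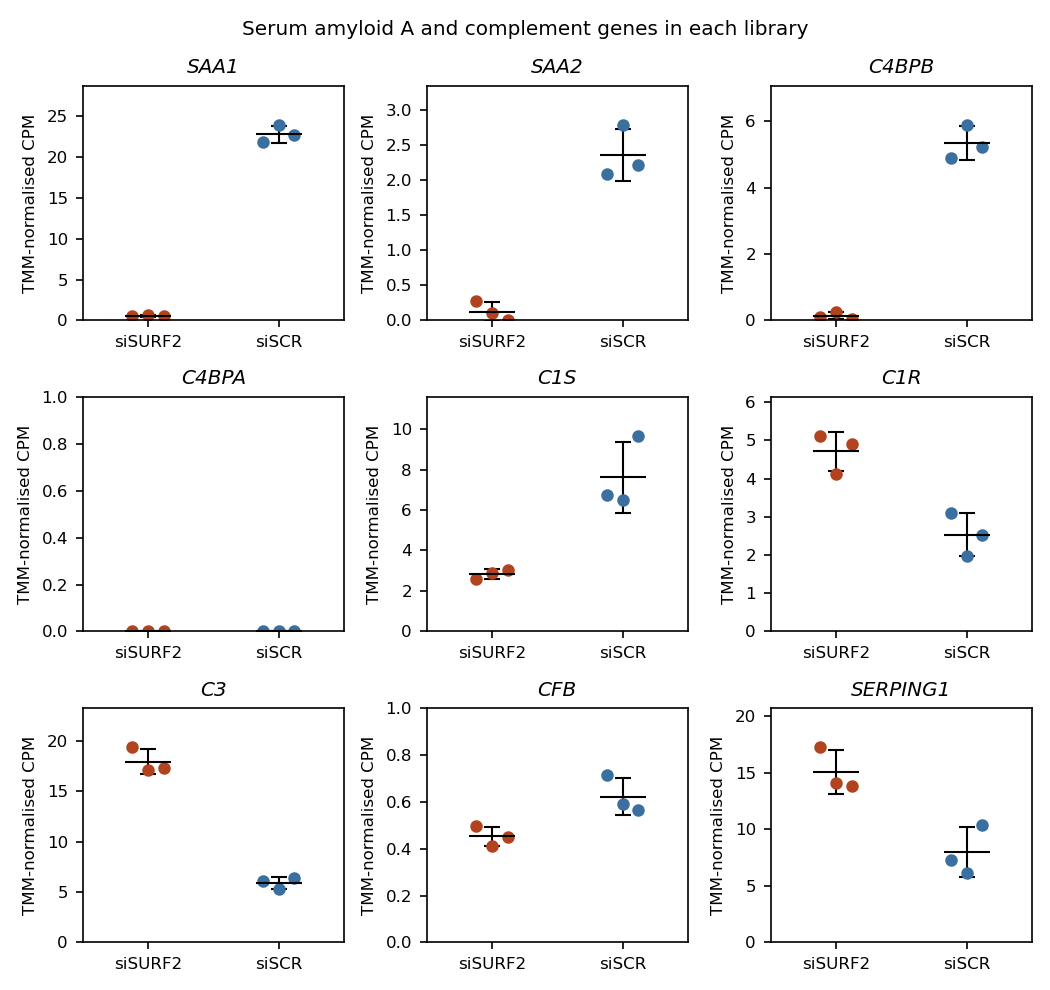
Level of each of the 9 genes in TMM-normalised CPM (y axis, from 0, on its own scale for each gene) in the 3 siSURF2 libraries (left, red) and the 3 siSCR libraries (right, blue), with a line at the mean and bars of 1 SD. SAA1, SAA2 and C4BPB sat near 0 in siSURF2, C1S was lower in siSURF2, C1R, C3 and SERPING1 were higher, CFB stayed under 1 CPM in both groups and C4BPA was at 0 throughout.

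C1S and C1R, the paired proteases of the C1 complex, moved in opposite directions. They lie tail to tail on chromosome 12, C1S (ENSG00000182326) at 6988259 to 7071032 on the plus strand and C1R (ENSG00000159403) at 7080199 to 7092607 on the minus strand. C1S, which cleaves C4 and C2, stood at 2.59, 2.89 and 3.05 CPM in siSURF2 replicates 1, 2 and 3, against 6.73, 6.47 and 9.65 CPM in siSCR replicates 1, 2 and 3. Every siSURF2 library was below every siSCR library, and siSCR replicate 3 was the highest. C1S fell with a log2 fold change of -1.42 ± 0.17 (edgeR adjusted p = 6.8e-08). C1R, which activates C1S, stood at 5.11, 4.13 and 4.90 CPM in siSURF2 replicates 1, 2 and 3, against 3.10, 1.98 and 2.52 CPM in siSCR replicates 1, 2 and 3. It rose with a log2 fold change of 0.90 ± 0.19 (edgeR adjusted p = 1.9e-04), again with no overlap of the groups. With library sizes set by the ERCC spike-in totals, C1R kept its direction at 0.88 but was not called (edgeR adjusted p = 0.087).

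Within a library, the ratio of C1S to C1R does not depend on library size. Per kb of exon it was 0.460, 0.638 and 0.567 in siSURF2 replicates 1, 2 and 3, against 1.98, 2.98 and 3.49 in siSCR replicates 1, 2 and 3. C1R thus had the more counts per kb of the pair in every siSURF2 library and C1S in every siSCR library. The means were 0.555 ± 0.0892 in siSURF2 and 2.82 ± 0.770 in siSCR (SD, n = 3 each), a quotient of 0.197, and the two-sided exact permutation test gave p = 0.10, the smallest that 3 against 3 libraries allow. Exons of C1S share 3.54% of their bases with EMG1, a ribosome assembly gene that fell by 0.60 on the log2 scale. Exons of C1R share 11.4% with C1RL, a related protease gene that rose by 0.55. Both overlapping genes were far more abundant. Mean levels in siSURF2 and siSCR were 47.6 and 72.2 CPM for EMG1, against 2.84 and 7.62 CPM for C1S. They were 52.5 and 35.8 CPM for C1RL, against 4.71 and 2.53 CPM for C1R. The part of these overlaps in the 2 changes and in the ratio was not tested.

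C3 rose most among the 9 genes. C3 (ENSG00000125730, chromosome 19, 6677704 to 6730562), the central component of complement, stood at 19.4, 17.1 and 17.3 CPM in siSURF2 replicates 1, 2 and 3, against 6.07, 5.30 and 6.42 CPM in siSCR replicates 1, 2 and 3. The lowest siSURF2 library was well above the highest siSCR library. The means were 18.0 ± 1.26 CPM in siSURF2 and 5.93 ± 0.575 CPM in siSCR (SD, n = 3 each), and the log2 fold change was 1.60 ± 0.11 (edgeR adjusted p = 1.0e-12). CFB (ENSG00000243649), which joins cleaved C3 in the alternative convertase, had only 8 or 9 counts in each siSURF2 library and 11 or 12 in each siSCR library. The groups did not overlap but lay a few counts apart. Its log2 fold change was -0.45 ± 0.42 (edgeR adjusted p = 0.38), and from summed counts the siSURF2 to siSCR ratio was 0.730 with an exact 95% interval of 0.421 to 1.25. Those counts are also uncertain because 45.5% of CFB exon bases are shared with C2 or a readthrough gene.

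SERPING1 (ENSG00000149131, chromosome 11, 57597387 to 57614853), the inhibitor of both C1 proteases, rose. Its level was 17.3, 14.1 and 13.8 CPM in siSURF2 replicates 1, 2 and 3, against 7.32, 6.15 and 10.4 CPM in siSCR replicates 1, 2 and 3. The groups did not overlap, although siSCR replicate 3 stood above the other control libraries. Its log2 fold change was 0.91 ± 0.15 (edgeR adjusted p = 6.3e-05), and 1.15 without siSCR replicate 3. With ERCC library sizes it was 0.82 and not called (edgeR adjusted p = 0.055). siSCR replicate 3 was also the highest control library for C1S.

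Of the 7 genes not picked by their values, 3 were called higher (C3, C1R and SERPING1), 2 lower (SAA2 and C1S) and CFB neither, and C4BPA could not be tested. Of all genes tested, 25.8% were called higher and 26.2% lower, so with 6 genes these counts are a description. SAA2 and CFB entered the test through their siSCR counts alone. Without the filter on low counts, SAA2 was still called lower and CFB was still not called. SAA2 shares transcript sequence with SAA1, which was picked for its fall, so the SAA2 call is not fully separate from that choice.

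The order of the levels differed between the groups. Per kb of annotated exon, siSURF2 libraries held most SERPING1 (4.18 ± 0.534 CPM per kb), then C3 (2.16 ± 0.151), C1R (0.801 ± 0.0879), SAA1 (0.742 ± 0.147) and C1S (0.440 ± 0.0365), all in CPM per kb with SD over 3 libraries. C1R and SAA1 did not differ beyond their spread. CFB, SAA2 and C4BPB were all under 0.1 CPM per kb. In siSCR libraries SAA1 led with 28.7 ± 1.31 CPM per kb, ahead of SERPING1 (2.21 ± 0.613), C4BPB (1.66 ± 0.158), C1S (1.18 ± 0.274), SAA2 (1.06 ± 0.167), C3 (0.712 ± 0.0690), C1R (0.430 ± 0.0948) and CFB (0.125 ± 0.0161). SERPING1 and C4BPB, and C1S and SAA2, were neighbours that did not differ beyond their spread there. Exon lengths are those of all annotated transcripts together, so genes with rarely used exons come out too low.

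Promoter sequences from RefSeq (GRCh38.p14) were at hand for 4 of the 9 genes, C4BPA, C4BPB, CFB and C1R, in 7 windows of 250 bases before and 50 bases after a start. 5 short motifs were searched on both strands: GGNNTTTCC for NF-kB, TTGCNNAA for C/EBP, TTCNNNGAA for STAT factors, TGANTCA for AP-1 and TATAAA for a TATA box. Over all 35116 windows of the table, 6.26% held the first, 10.5% the second, 7.66% the third, 7.71% the fourth and 11.5% the fifth. The 4 windows printed here include the C4BPB window nearest to the annotated gene start. The others, of C4BPB, CFB and C1R, each hold a match to the STAT motif. The printed windows therefore do not show how common that match is among the 7. Capitals mark motif matches, and each is written 5′ to 3′ on the strand of its gene.
C4BPB, chr1:207088610-207088909, plus strand: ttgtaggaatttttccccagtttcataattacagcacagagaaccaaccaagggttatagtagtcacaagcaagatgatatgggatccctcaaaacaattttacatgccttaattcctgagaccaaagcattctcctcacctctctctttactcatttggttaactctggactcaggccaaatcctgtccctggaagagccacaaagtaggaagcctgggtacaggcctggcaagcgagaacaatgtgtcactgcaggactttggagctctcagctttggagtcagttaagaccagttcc
C4BPB, chr1:207089033-207089332, plus strand: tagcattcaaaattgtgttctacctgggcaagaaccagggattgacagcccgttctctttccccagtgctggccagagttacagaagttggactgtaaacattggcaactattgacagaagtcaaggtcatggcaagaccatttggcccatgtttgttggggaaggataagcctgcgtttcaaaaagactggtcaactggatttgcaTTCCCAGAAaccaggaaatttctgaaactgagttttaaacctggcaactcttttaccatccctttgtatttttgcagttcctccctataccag
CFB, chr6:31945845-31946144, plus strand: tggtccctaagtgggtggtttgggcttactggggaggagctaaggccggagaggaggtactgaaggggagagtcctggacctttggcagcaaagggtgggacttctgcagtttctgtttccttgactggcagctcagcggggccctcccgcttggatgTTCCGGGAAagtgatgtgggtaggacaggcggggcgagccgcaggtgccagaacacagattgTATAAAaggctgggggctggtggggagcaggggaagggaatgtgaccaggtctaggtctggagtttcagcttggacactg
C1R, chr12:7091844-7092143, minus strand: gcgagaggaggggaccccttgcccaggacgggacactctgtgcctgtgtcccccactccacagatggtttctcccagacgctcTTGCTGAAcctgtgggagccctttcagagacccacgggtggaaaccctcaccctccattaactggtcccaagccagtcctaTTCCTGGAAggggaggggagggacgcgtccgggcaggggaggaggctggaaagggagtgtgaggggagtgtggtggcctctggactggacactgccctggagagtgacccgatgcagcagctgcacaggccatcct

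The first C4BPB start, nearest to the annotated gene start, had no match to these letters, and the C4BPA window had none either. A downstream C4BPB start had the STAT letters as TTCCCAGAA, beginning 43 bases before it. CFB had them as TTCCGGGAA, beginning 92 bases before its start, and TATAAA beginning 30 bases before it. In C1R, TTCCTGGAA began 86 bases before a downstream start, with a C/EBP match further up at 167 bases. The C1R start nearest to the annotated gene start had no STAT match and a C/EBP match, TTATGCAA, at position -106 from it. The STAT letters occurred near a start of C4BPB, CFB and C1R, which were lower, not called and higher in siSURF2. Letter matches describe these windows only.

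The rest of the acute-phase and complement systems also went both ways. Of 82 further genes in 5 lists drawn up from general knowledge, 30 were tested. Among these, 14 rose and 8 fell, while the remaining 8 were not called. Their median log2 fold change was 0.07, against 0.004 over all genes tested. Of all genes tested, 25.8% were called higher and 26.2% lower, and each list count below is to be read against these shares. With ERCC library sizes 4 of the list genes rose and 2 fell, against 802 higher and 825 lower among all 17561 genes tested. Of the acute-phase, complement, inducer and neighbour genes named as higher or lower from here on, SERPINA1, FTH1, PTX3, C3AR1, LIFR, NFKB2, RELB, HNF4A and YPEL4 kept their call under those sizes, and the others did not. The lists were tested gene by gene within the whole table, and a gene detected in only 1 group passes the filter through that group. Of 27 other acute-phase genes, 8 were tested, with 4 higher and 3 lower. SERPINA1, which encodes alpha-1 antitrypsin, rose to 65.4 ± 1.83 CPM in siSURF2, against 34.5 ± 1.14 CPM in siSCR (log2 fold change 0.92 ± 0.06). The ferritin chains FTH1 and FTL, which store iron and rise in inflammation, rose by log2 fold changes of 0.88 ± 0.05 and 0.48 ± 0.05, though both have many processed pseudogenes that make their counts uncertain.

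PTX3, a long pentraxin that binds C1q, fell with a log2 fold change of -1.01 ± 0.11 (edgeR adjusted p = 1.9e-08), and HPX, the haem carrier hemopexin, with -1.21 ± 0.46 at under 1 CPM. HPX passed the filter on low counts through siSCR alone and was not called without siSURF2 replicate 2, without siSCR replicate 3 or by DESeq2. Classical liver products were nearly silent: CRP, FGA, FGB, FGG and SERPINA3 had 0 counts in all libraries. Of 8 hepatocyte markers, HNF4A alone was tested, and ALB, TTR and TF were at 0. Summed hepatocyte markers came to 0.935 to 1.5 CPM in siSURF2 libraries and 0.154 to 0.749 CPM in siSCR libraries.

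Among activation components, 5 of 18 genes were tested and 3 rose, against 25.8% called higher over all genes tested. CFD, the serine protease that cleaves CFB, rose to 11.9 ± 1.47 CPM in siSURF2, against 6.89 ± 0.540 CPM in siSCR (log2 fold change 0.80 ± 0.12, edgeR adjusted p = 2.6e-06). C1RL rose by 0.55 ± 0.07, and COLEC12, a scavenger collectin, by 1.11 ± 0.33 from few counts. COLEC12 was over the low-count filter in every siSURF2 library but not in every siSCR library. C4A and C4B, the near-identical genes of C4, on which C1S acts, were too low to be tested. Together they had 13, 12 and 22 counts in siSURF2 replicates 1, 2 and 3, against 3, 2 and 3 counts in siSCR replicates 1, 2 and 3, a ratio of 5.61 with an exact 95% interval of 2.63 to 13.8. Without the filter on low counts, C4A had a log2 fold change of 2.03 ± 0.63 (edgeR adjusted p = 0.0051). No chain of C1q (C1QA, C1QB, C1QC) had a count, and C5 was the only 1 of 7 terminal pathway genes at a testable level, at 1.48 ± 0.430 CPM in siSURF2 and 1.38 ± 0.155 CPM in siSCR (edgeR adjusted p = 0.80). The C5 log2 fold change was 0.10, and -0.13 without siSURF2 replicate 2.

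Membrane and fluid regulators of complement split as well. Of 20 genes, 10 were tested, with 4 higher and 4 lower, against 25.8% and 26.2% of all genes tested. CLU, clusterin, which blocks the membrane attack complex, rose to 798.7 ± 53.4 CPM in siSURF2, against 582.3 ± 23.6 CPM in siSCR (log2 fold change 0.46 ± 0.05, edgeR adjusted p = 2.8e-08). CSMD1 and CSMD2, large membrane proteins with complement control domains, rose by 0.82 ± 0.09 and 0.93 ± 0.25. CD46, a membrane cofactor for cleavage of C3b and C4b, fell with a log2 fold change of -0.37 ± 0.07 and SUSD4, another membrane inhibitor, with -0.83 ± 0.13 (edgeR adjusted p = 1.3e-04 and 3.5e-06). C1QBP, a mitochondrial protein also known to bind C1q, fell with -0.33 ± 0.05. CD59, which protects cells from lysis, did not pass the threshold at 145.2 ± 2.83 CPM in siSURF2 and 153.5 ± 3.35 CPM in siSCR (edgeR adjusted p = 0.18).

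Receptors for complement fragments were low in these cells, and 6 of 10 were tested. Of these, 3 were higher and 1 lower, against 25.8% and 26.2% of all genes tested. C3AR1, the receptor of C3a, had 15, 15 and 27 counts in siSURF2 replicates 1, 2 and 3, against 5, 1 and 3 counts in siSCR replicates 1, 2 and 3 (log2 fold change 2.54 ± 0.52, edgeR adjusted p = 1.2e-04). It passed the filter on low counts through siSURF2 alone, the call held without that filter at 2.56, and the log2 fold change was 3.15 without siSCR replicate 1. CR2, a receptor of C3d beside the C4BP locus, rose by 1.29 ± 0.32 at under 2 CPM. It was over that filter in every siSURF2 library but not in every siSCR library. ITGAX and ITGB2, which together form complement receptor 4, went apart, with log2 fold changes of 0.53 ± 0.16 and -0.46 ± 0.11, though ITGAX was not called without siSCR replicate 1. Summed markers of monocytes and macrophages were 7.55 to 8.30 CPM in siSURF2 libraries and 7.86 to 8.99 CPM in siSCR libraries, none of the 3 tested was called, and LYZ and FCGR3A were at 0. Among 9 genes of serum amyloid A reception, 4 were tested. TLR4 and the protease MMP14 rose by 0.28 ± 0.08 and 0.52 ± 0.07, while FPR2 and TLR2 had no counts.

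**Figure D2:**
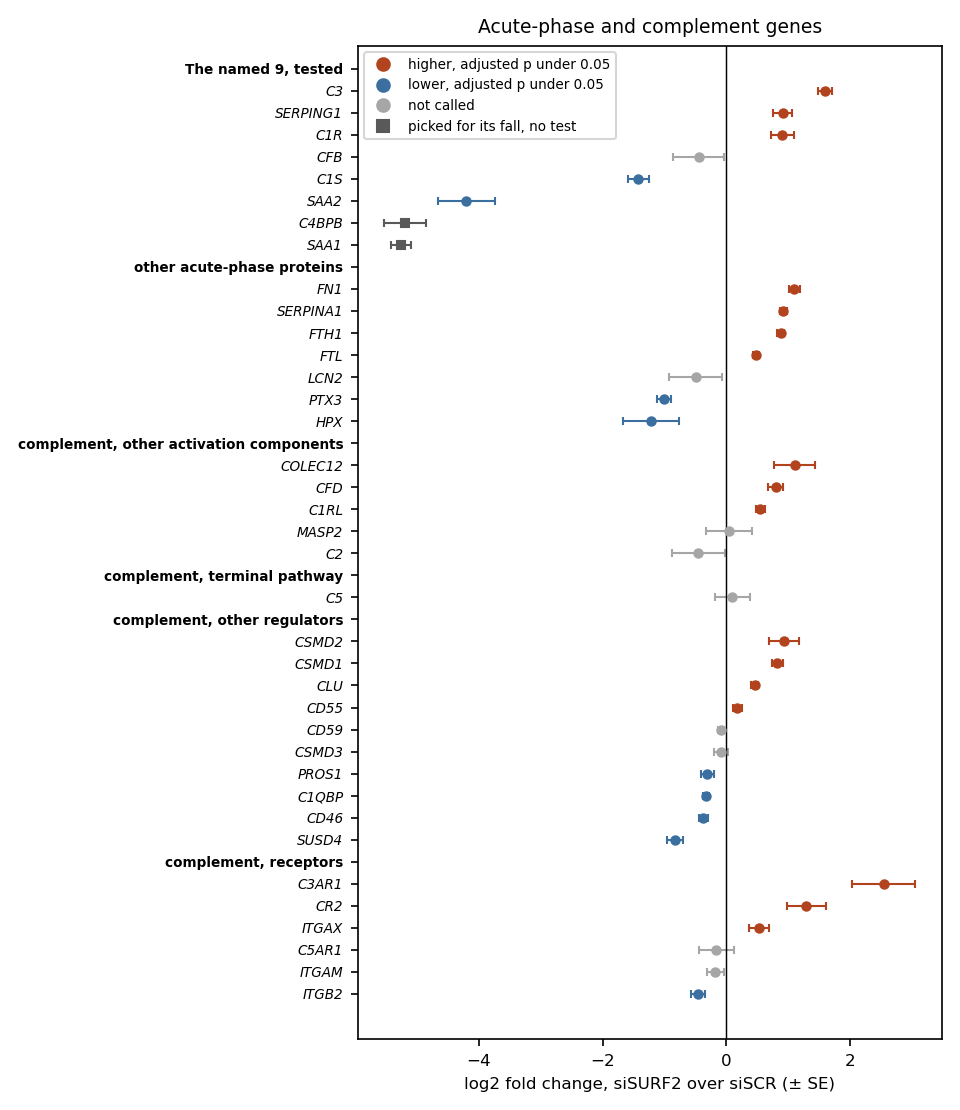
Log2 fold change of siSURF2 over siSCR (x axis, with bars of 1 SE) for the 8 tested genes of the 9 and for the tested genes of the wider lists that are reported here, grouped by role; red is higher and blue is lower at an adjusted p under 0.05, grey is not called, and squares are the genes picked for their falls. Genes to the left and to the right of 0 occur in the acute-phase, regulator and receptor lists, and SAA1, C4BPB and SAA2 lie farthest to the left.

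Genes of the signalling that is known to induce these targets were measured in the same fit. Of 25 inducing cytokines, receptors and kinases, 17 were tested, with a median of 0.04. Of these, 4 were higher and 3 lower, against 25.8% and 26.2% of all genes tested. LIFR, the receptor of leukemia inhibitory factor, stood at 40.8, 42.5 and 43.9 CPM in siSURF2 replicates 1, 2 and 3, against 80.2, 83.9 and 91.5 CPM in siSCR replicates 1, 2 and 3. This was a fall with a log2 fold change of -1.01 ± 0.06 (edgeR adjusted p = 7.4e-14). IL6ST, the signalling chain gp130 that LIFR pairs with, fell with -0.36 ± 0.05 (edgeR adjusted p = 2.6e-06), and IL6R, the interleukin 6 binding chain, rose by 0.37 ± 0.07. IL11, another ligand of the family, was at -0.32 ± 0.13 (edgeR adjusted p = 0.043), a call lost by DESeq2, by limma-voom and in several other settings. TNFRSF1A, the main receptor of tumour necrosis factor, rose by 0.54 ± 0.05, and JAK1, a kinase of these receptors, by 0.24 ± 0.05. The ligands IL6, IL1A, IL1B and TNF had at most 11 counts in any library.

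Of 27 transcription factors and feedback genes, 25 were tested. Of these, 7 were higher and 9 lower, against 25.8% and 26.2% of all genes tested. Among these 25, the farthest falls were in the non-canonical NF-kB subunits. NFKB2, the p100 precursor, stood at 174.3, 165.7 and 164.2 CPM in siSURF2 replicates 1, 2 and 3, against 319.1, 338.7 and 290.8 CPM in siSCR replicates 1, 2 and 3 (log2 fold change -0.91 ± 0.05, edgeR adjusted p = 4.3e-14). RELB, its usual partner, fell with -0.88 ± 0.07 (edgeR adjusted p = 3.1e-11), and REL rose by 0.61 ± 0.11. RELA, named after its values were seen, did not pass the threshold at 173.6 ± 8.0 CPM in siSURF2 and 178.9 ± 10.1 CPM in siSCR (edgeR adjusted p = 0.52). CEBPB, a C/EBP factor, rose to 63.3 ± 2.59 CPM in siSURF2, against 41.0 ± 3.49 CPM in siSCR (log2 fold change 0.63 ± 0.06, edgeR adjusted p = 3.3e-09). HNF4A, a hepatocyte factor, had 13, 18 and 24 counts in siSURF2 replicates 1, 2 and 3, against 5, 5 and 2 counts in siSCR replicates 1, 2 and 3 (log2 fold change 2.09 ± 0.47). HNF4A also passed the filter through siSURF2 alone, and without that filter the value was 2.11.

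**Figure D3:**
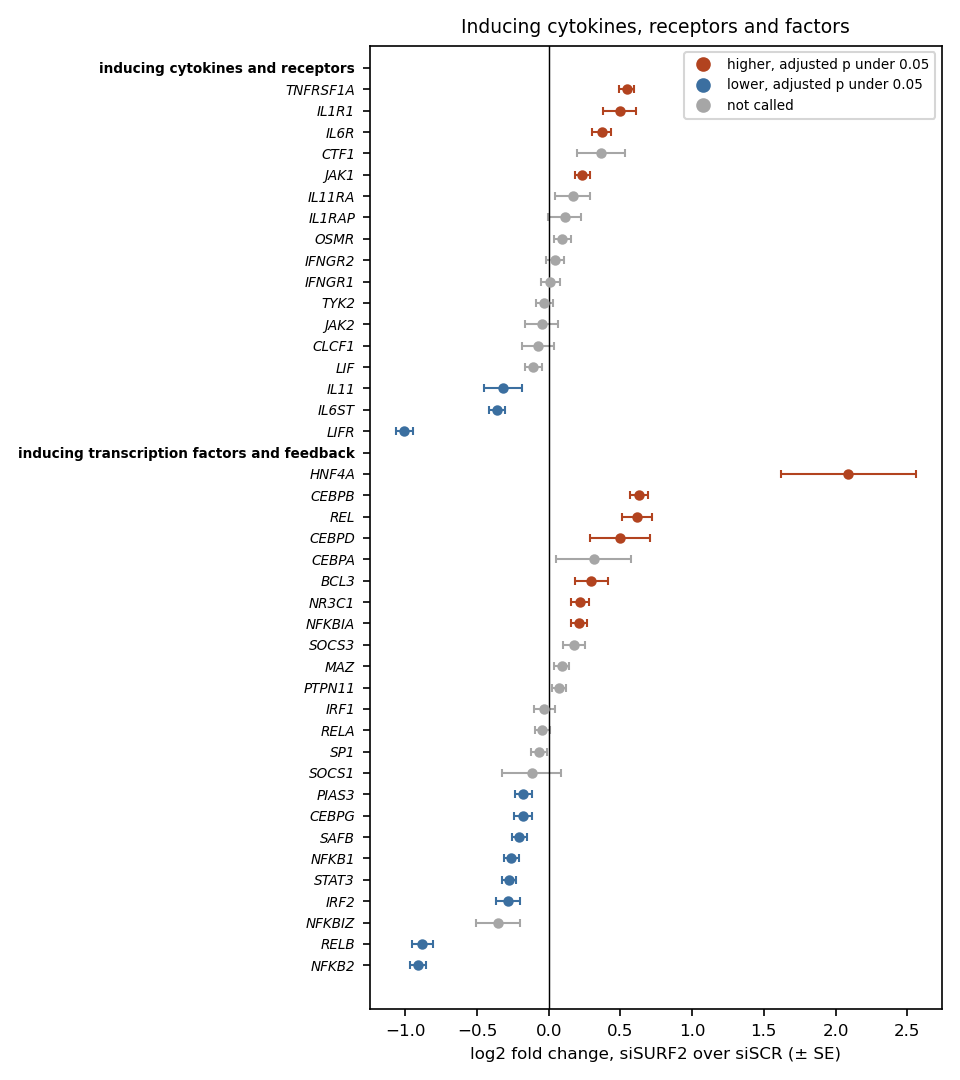
Log2 fold change of siSURF2 over siSCR (x axis, with bars of 1 SE) for the tested inducing cytokines, receptors and kinases and the tested transcription factors and feedback genes that are reported here; red is higher and blue is lower at an adjusted p under 0.05, and grey is not called. LIFR, NFKB2 and RELB lie farthest to the left at -1.01, -0.91 and -0.88, and HNF4A farthest to the right at 2.09.

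No tested neighbour of SAA1, SAA2 or C4BPB fell as far as these genes did. SAA1 and C4BPB were picked for their strong falls, so this is largely set by that choice and is a description only. The nearest 2 protein-coding genes on each side of the 6 loci made 24 genes, of which 19 were tested. There were 7 higher, 9 lower and 3 not called, against 25.8% higher and 26.2% lower over all genes tested. Next to SAA1 and SAA2, HPS5 (endosomal sorting) and GTF2H1 (transcription factor TFIIH) fell by log2 fold changes of -0.43 ± 0.06 and -0.33 ± 0.06, against -5.26 and -4.20 for the serum amyloid genes. Around C4BPB, the deubiquitinase YOD1 fell with -0.50 ± 0.07, PFKFB2 was not called, and CD55 and CR2, complement regulator and receptor genes, were higher by 0.18 ± 0.07 and 1.29 ± 0.32. CD55 lost its call by DESeq2 and without siSURF2 replicate 2 or 3 or siSCR replicate 1 or 2. On both sides of C3, CD70 rose by 0.80 ± 0.08 and GPR108 by 0.59 ± 0.07, while TRIP10 was not called at -0.04 (edgeR adjusted p = 0.56), and the annotated spans of C3 and GPR108 overlap without shared exon bases. By SERPING1, YPEL4 fell with -1.34 ± 0.16 while SERPING1 itself rose. UBE2L6, on its other side, was at 0.17 ± 0.07, a call lost by DESeq2.

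**Figure D4:**
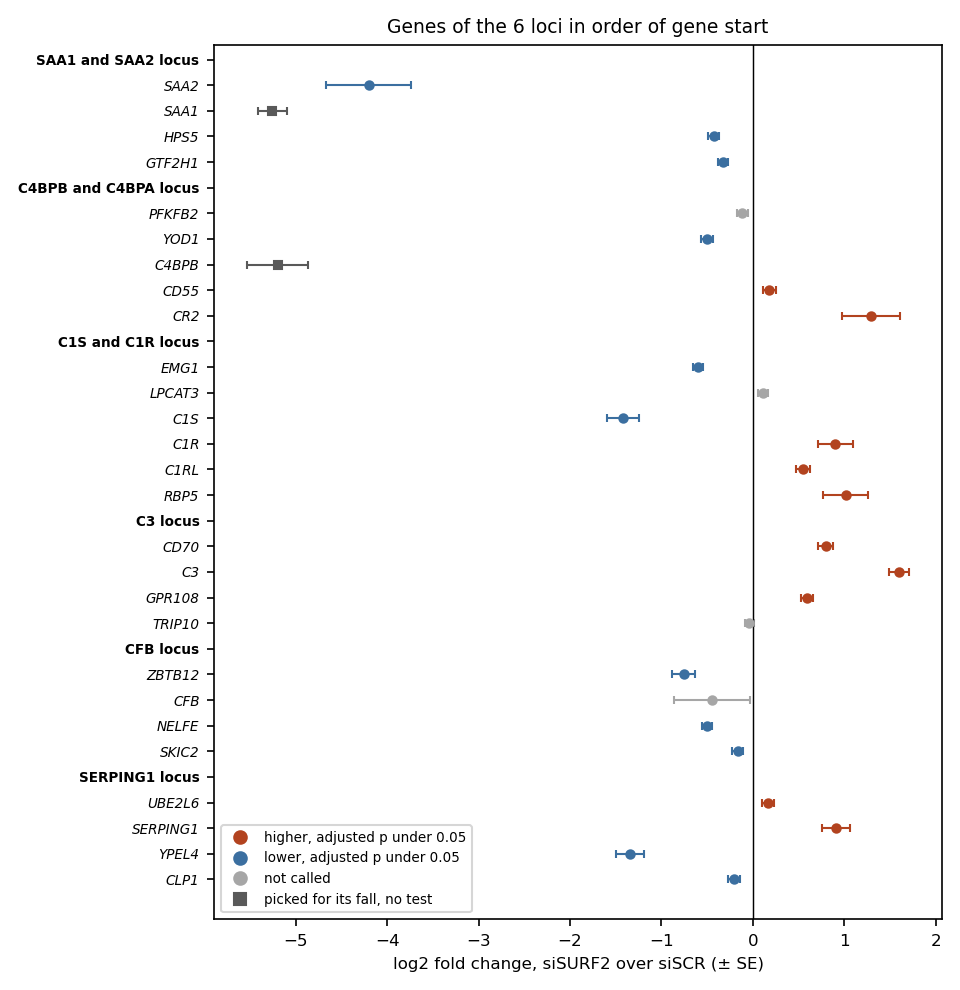
Log2 fold change of siSURF2 over siSCR (x axis, with bars of 1 SE) for the tested genes of each locus and its nearest protein-coding genes, in order of gene start from top to bottom within a locus; colours mark the call and squares the genes picked for their falls. SAA1, SAA2 and C4BPB lie between -5.26 and -4.20, and no neighbouring gene is below -1.34. SAA1 and C4BPB lie far to the left by the way they were picked.

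Some genes had profiles over the 6 libraries close to those of the 2 picked genes. Likeness was the Euclidean distance between centred log2 CPM profiles over the 6 libraries, among 12962 protein-coding genes. Nearest to SAA1 were OLR1 (a scavenger receptor, distance 0.630), TNNT2 (cardiac troponin T, 1.12), MOB3B (1.16) and MC5R (a melanocortin receptor, 1.26). Nearest to C4BPB were MOB3B (distance 0.757), NLRP10 (1.03), OLR1 (1.07) and NLRP5 (1.11). OLR1 had 2, 4 and 4 counts in siSURF2 replicates 1, 2 and 3, against 129, 127 and 183 counts in siSCR replicates 1, 2 and 3, and MOB3B had 16, 27 and 18 counts in the siSURF2 libraries, against 301, 362 and 449 counts in the siSCR libraries. These distances are a description over 6 libraries, which the genes share.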

How the data were processed

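PolyA RNA was sequenced from 6 libraries (3 siSURF2, 3 siSCR). The authors deposited 1 table of raw, unnormalised read counts per gene. GRCh38 is the build, and STAR 2.5.2b and fastp 0.23.1 are among the tools, per the submitters' processing notes. How reads were counted (tool, annotation, strand) is not given in the sources used. Names came from a gene name table (56948 identifiers) and GENCODE 29 (499 more), which also gave coordinates and exon lengths, and 604 stayed unnamed. The 92 ERCC rows entered neither library sizes nor tests (1.12% to 1.72% of counts). Genes were filtered with filterByExpr (minimum count 10, minimum total 15; 17561 kept), normalised by TMM and tested with edgeR 4.0.16 (R 4.3.3), quasi-likelihood F-test, robust dispersion, group term only, Benjamini-Hochberg over all genes, threshold 0.05. SE is the log2 fold change fitted without prior count over the square root of F. Summed-count intervals are exact (95%) and cover counting error only. Alternatives used DESeq2 1.42.0 and limma-voom (limma 3.58.1). The edgeR step was tested on simulated data. Members, lists and tests were chosen with earlier results of these data known. Genes named were the 9, SURF2, locus neighbours, up to 3 per list and direction by adjusted p (or the highest if none was called), and the 4 nearest profiles. Other genes are named as at 0, too low or for context. A few list genes are counted but not reported here by name.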

Additional observations from a re-analysis of the deposited data

How the results depend on the processing

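Setting library sizes by the ERCC totals changed the most. Over all genes it left 802 higher and 825 lower in siSURF2, against 4535 and 4596 with TMM, and of the genes not picked by value it left 1 higher (C3) with 2 lower. In the wider acute-phase and complement lists it left 4 higher and 2 lower. The cause was not tested. Under the other settings, including leaving out each library, those members stayed at 3 higher and 2 lower. Between the lowest and the highest count across all settings, the wider lists gave 4 to 16 higher and 2 to 10 lower. The upper-quartile factors moved the median of all genes to 0.05 and split the calls into 5154 higher and 3986 lower. The SAA1 share of SAA1 and SAA2 in siSURF2 ranged from 77.4% to 92.3% when 1 library was left out, and it rests on 41 counts in all. Among the genes followed across the settings, none that was called reversed its direction in any setting run. C5 (-0.13 without siSURF2 replicate 2) and TRIP10 (0.007 with upper-quartile factors), which were not called, did. RUNX2, RELA and CD59 were not among the genes followed. Same-numbered libraries did not deviate together (correlations 0.004, -0.092 and -0.039), and no correlation pattern put every library with its own number. Pairing by number was thus not detected, but 3 libraries per group are too few to exclude it. A fit with the replicate block called 4478 genes higher and 4550 lower. Depth limits SAA2, C4BPB and CFB, each under 1 CPM in siSURF2, and C4BPA in all libraries.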

Other observations

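Markers of other cell types were read in the same libraries. The 6 endothelial markers summed to 8.26 to 8.90 CPM in siSURF2 libraries and 14.3 to 15.0 CPM in siSCR libraries. Of these, 3 of the 4 tested fell, and 26.2% of all genes tested were called lower. TEK, an angiopoietin receptor, had a log2 fold change of -2.15 ± 0.33, PECAM1 of -1.34 ± 0.31 and the transcription factor ERG of -0.89 ± 0.15 (edgeR adjusted p = 3.7e-06, 6.4e-04 and 9.8e-06). TEK and PECAM1 were over the low-count filter in every siSCR library but not in every siSURF2 library. VWF was not called at 0.005 ± 0.195, and CDH5 and KDR were too low to be tested. Of the 4 tested osteoblast lineage genes, 1 was not called. The rest were 2 higher and 1 lower, against 25.8% and 26.2% of all genes tested. SPP1, which encodes osteopontin, rose to 20.6 ± 5.01 CPM in siSURF2, against 6.51 ± 1.21 CPM in siSCR (SD, n = 3 each, edgeR adjusted p = 1.9e-05). The alkaline phosphatase gene ALPL fell with a log2 fold change of -2.07 ± 0.26.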
